A study of Ovis aries with 2 samples.

Results

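TBX4 positive allantois-like mesenchyme is the name given here to cells that carry RNA of the T-box gene TBX4 together with a posterior HOXA gene or PITX1. The cells were chosen by their UMIs, the counted RNA molecules of each barcode. Barcodes with at least 200 genes and under 10% of their UMIs on mitochondrial genes were kept, and a kept cell was a member when it held at least 1 UMI of TBX4 and at least 1 UMI of HOXA11, HOXA13 or PITX1. The rule selected 1374 of 24137 kept cells: 363 of 14554 in Ujumqin and 1011 of 9583 in Hulunbuir. The levels of these 4 genes are therefore a description of the choice and were not tested.

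The cells come from whole sheep embryos of embryonic day 16, and the comparison of breeds bears on tail form. Ujumqin sheep have a long fat tail and Hulunbuir Short-tail sheep a short tail; no treatment and no further genotype separates the groups in the labels. Each breed gave 1 library made from pooled embryos, so that embryos cannot be told apart within a library, and breed and library cannot be told apart either. Extraembryonic tissue was dissected away, the rest was digested with enzymes, red blood cells were lysed, and RNA was read from its 3' end with 10x Chromium v3 chemistry; the labels do not say how much allantois each pool kept.

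The Ujumqin library holds 17059 barcodes with 212933364 UMIs and the Hulunbuir library 10709 barcodes with 131385353, and the study states the same cell numbers. A mitochondrial limit of 10% alone, a limit that the study states beside its other filters, leaves 14571 and 9583. The median kept cell held 9519 UMIs from 1247 genes in the Ujumqin library and 11879 UMIs from 2180 genes in the Hulunbuir library. Members were deeper in both libraries, 39426 UMIs from 3568 genes at the Ujumqin median and 20695 from 2875 at the Hulunbuir median. Their UMIs sum to 18003995 and 22590494. Levels are in counts-per-million (CPM), the UMIs of a gene over all UMIs of a group of cells, with exact Poisson 95% intervals, and shares have exact Clopper-Pearson 95% intervals; these cover counting error only, and with 1 library per breed no difference was tested.

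The libraries stand apart in ways that bear on any comparison. Cells with a UMI of 4 or more erythroid markers number 5325 in Ujumqin and 4 in Hulunbuir, and in Ujumqin they hold 116101091 of the 191572785 UMIs of the cells that are not members. A gene that red cells lack thus looks raised in Ujumqin members when set against all other cells. Of all genes at 5 CPM in Ujumqin, 18.1% were at least 2-fold higher and 3.84% lower in members than in all other kept cells, but 0.311% higher and 3.79% lower when erythroid-marker cells were left out, a comparison chosen after seeing the data that keeps 8866 Ujumqin and 8568 Hulunbuir cells. Values over these non-erythroid cells are therefore given beside those over all other cells. The libraries share 61 barcodes, 3 of them on Ujumqin members and 7 on Hulunbuir members. Without shared barcodes the share of members is 2.48% in Ujumqin and 10.5% in Hulunbuir, and the counts of genes with a difference of at least 2-fold between the libraries, given below as 76 and 41, are 76 and 40.

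The allantois is an outgrowth of mesoderm at the posterior end of the embryo that joins the chorion and builds the vessels of the umbilical cord, and in ruminants this mesoderm covers a large sac of endoderm. TBX4 is transcribed in allantoic mesenchyme and, later, in the hindlimb field, where PITX1 acts above it, while HOXA11 and HOXA13, from the posterior end of the HOXA cluster, act in limb, urogenital and allantoic tissue. FOXF1, a forkhead factor downstream of Hedgehog signals, and TBX20, a T-box factor of heart and lateral plate, are known from extraembryonic and splanchnic mesoderm.

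Members made up 2.49% of kept cells in Ujumqin (interval 2.25 to 2.76) and 10.5% in Hulunbuir (9.94 to 11.2), a ratio of 4.23. A rule of single UMIs finds more cells at greater depth, so it was applied again to cells thinned to a fixed number of UMIs, with shallower cells left out. At 5000 UMIs it found 12 of 8069 Ujumqin cells, 0.149% (0.0769 to 0.260), and 204 of 7540 Hulunbuir cells, 2.71% (2.35 to 3.097). The ratio of the shares was 14.8 at 2000 UMIs, 18.2 at 5000 and 7.27 at 10000; at 2000 UMIs it rests on 3 of 9471 Ujumqin cells (0.00653 to 0.0925%) and 40 of 8520 Hulunbuir cells. These ratios hold the red cells of Ujumqin in the denominator. With erythroid-marker cells left out, which for thinned cells was chosen after seeing the data, the ratio was 6.51 at 2000 UMIs, from the same 3 Ujumqin cells, 6.55 at 5000, 2.41 at 10000 and 2.68 with all UMIs, the last from a Ujumqin share of 3.93%. Hulunbuir had the larger share in each case; the breed, the pool and the dissection of a library cannot be told apart.

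**Figure D1:**
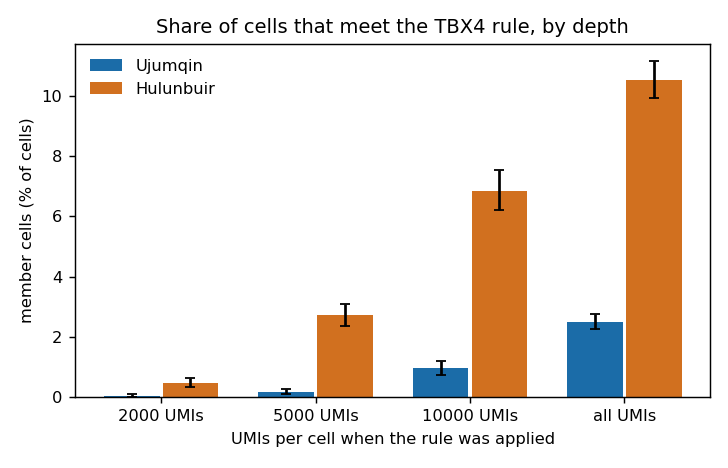
Member cells as a percentage of cells (vertical axis) when the rule was applied to cells thinned to 2000, 5000 or 10000 UMIs or to all UMIs (horizontal axis), with blue bars for Ujumqin, orange bars for Hulunbuir and exact 95% intervals as error bars. The Hulunbuir share is larger at each depth, 6.85% against 0.942% at 10000 UMIs.

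Detection of the rule genes was thin in both libraries. A single TBX4 UMI placed 279 of the Ujumqin members (76.9%) and 747 of the Hulunbuir members (73.9%), and no member held more than 6 in Ujumqin and 5 in Hulunbuir. Among cells with TBX4, 72.0% of 504 in Ujumqin and 83.6% of 1209 in Hulunbuir had a partner gene as well. HOXA11 was the most frequent partner, in 68.9% and 79.5% of members, followed by PITX1 in 64.7% and 54.1% and HOXA13 in 30.6% and 38.1%. Partner genes occurred together in many cells: 178 Ujumqin members (49.0%) and 561 Hulunbuir members (55.5%) had at least 2, and 55 and 164 had all 3. Those with all 3 were the deepest, with medians of 81621 and 26388.5 UMIs.

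The levels of the rule genes in members were 26.7 and 60.4 CPM for TBX4, 30.2 and 84.4 for HOXA11, 7.44 and 22.2 for HOXA13, and 25.7 and 37.0 for PITX1, in Ujumqin and Hulunbuir in that order. As the rule asks for at least 1 UMI of each member, these levels rise as depth falls, and they are not compared between the libraries. In the other kept cells TBX4 stood at 0.814 and 2.06 CPM, as the choice requires, but the partner genes were widespread: HOXA11 reached 6.66 and 40.2 and PITX1 5.15 and 21.2. A group with a UMI of 4 or more endothelial markers and none of TBX4 (161 Ujumqin and 381 Hulunbuir cells) had 16.7 and 90.2 CPM of HOXA11, the second above the Hulunbuir members. HOXA11 RNA was thus also found in endothelial-marker cells of both libraries, in Ujumqin at a lower level than in members, where the level follows from the rule.

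Cells on each side of the edge of the rule can be compared on genes that it did not use. Members just inside, with exactly 1 UMI of TBX4 and 1 of a partner, numbered 97 and 222. Just outside lay 141 and 198 cells with TBX4 and no partner, and 1211 and 3093 with a partner and no TBX4. Their median depths were 26885, 21499 and 27747 UMIs in Ujumqin and 16834.5, 12877 and 16370 in Hulunbuir. FOXF1, which the rule did not use, stood at 4.91, 4.73 and 6.40 CPM in these 3 Ujumqin groups and at 12.1, 8.48 and 11.9 in the Hulunbuir groups. The collagen-binding proteoglycan gene LUM was at 1806, 1565 and 1638 CPM and at 629, 611 and 540.1 CPM. A larger gap lay in the keratin gene KRT18, at 973 CPM in Ujumqin members just inside, 573 in cells with TBX4 and no partner and 1288 in those with a partner and no TBX4, against 1986 in all members; in Hulunbuir these were 3185, 2805, 3077 and 3998. Cells just outside the rule thus held FOXF1, LUM and KRT18 as well.

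The name was checked on the markers outside the rule. FOXF1 reached 6.61 CPM (5.48 to 7.91) in Ujumqin members against 1.93 in other kept cells and 1.16 in endothelial-marker cells. In Hulunbuir it reached 14.3 (12.7 to 15.9) against 8.18 and 1.68. TBX20 gave 8.33 (7.05 to 9.78) against 2.17 and 1.54 in Ujumqin, and 18.2 (16.5 to 20.1) against 9.48 and 2.11 in Hulunbuir. Both markers were thus higher in members than in all other kept cells of each library, by 3.42-fold and 3.85-fold in Ujumqin and 1.74-fold and 1.92-fold in Hulunbuir. Over non-erythroid cells of Ujumqin, with 4.33 and 4.85 CPM, the folds were 1.53 and 1.72. They are not particular to members. The cluster with most members, described below, held 7.64 and 9.63 CPM over all its cells in Ujumqin (153 members of 940 cells). In Hulunbuir it held 13.7 and 19.7 (500 of 1681). After thinning to 5000 UMIs, 3.601% of Ujumqin members (13 of 361, interval 1.93 to 6.08) had a FOXF1 UMI and 6.39% of Hulunbuir members (64 of 1002, 4.95 to 8.08). Endothelial-marker cells gave 0.625% (1 of 160, 0.0158 to 3.43) and 0.806% (3 of 372, 0.167 to 2.34), so the Ujumqin intervals overlap. A FOXF1 UMI was in 0.116% of Ujumqin erythroid-marker cells of median depth 20806, a cell type not known to use the gene. Of the other kept cells 0.714% and 3.62% had one, red cells included. The endothelial-marker cells had median depths of 30811 and 20084 UMIs before thinning, and the Ujumqin ones also carried 2489 CPM of the fetuin gene AHSG, so they are no clean reference there. Hulunbuir erythroid-marker cells, 4 in number, were too few to serve.

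**Figure D2:**
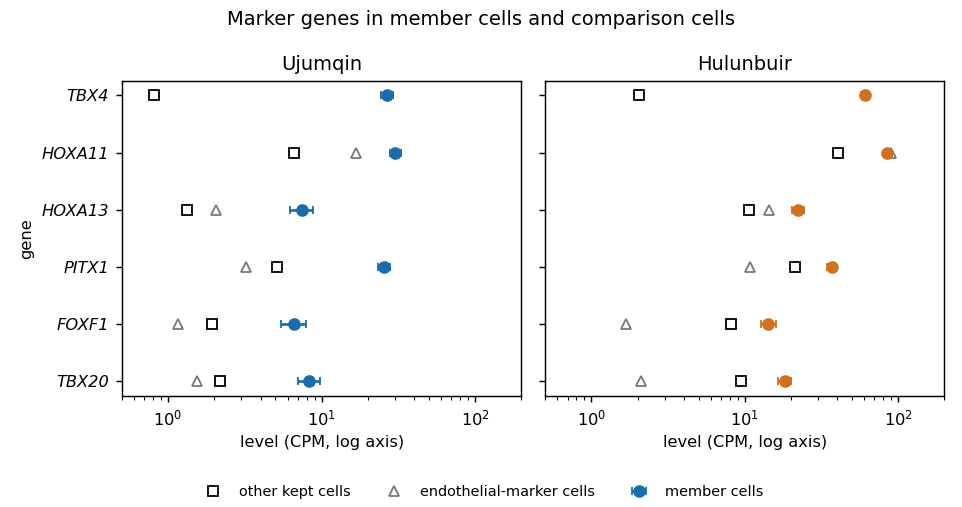
Levels of the 6 marker genes in CPM (horizontal log axis, gene on the vertical axis) in Ujumqin (left) and Hulunbuir (right): filled circles with exact 95% intervals are members, squares other kept cells, triangles endothelial-marker cells, with TBX4 at 0 in the last by construction. FOXF1 and TBX20, outside the rule, lie to the right in members, and HOXA11 in Hulunbuir endothelial-marker cells (90.2 CPM) lies as far right as in members (84.4).

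A list of transcription factors of lateral plate and allantois, which includes FOXF1 again, was set against the same cells. Of the 25 factors listed for these tissues, 7 reached 5 CPM in members or in other cells of Ujumqin, and 7 of these 7 were at least 2-fold higher in members, beside 18.1% of all 5364 genes higher and 3.84% lower. Over non-erythroid cells 0 of 7 were higher and 0 lower (median log2 0.61), beside 0.311% and 3.79% of 5467 genes. In Hulunbuir 2 of 12 were higher and 3 lower, where 0.397% of all 6042 genes were higher and 4.02% lower. The highest in level was HAND2, a helix-loop-helix factor of limb, heart and branchial mesenchyme, at 82.9 CPM in Ujumqin members and 112 in Hulunbuir, against 19.2 and 57.5 in other cells and 43.9 in non-erythroid cells of Ujumqin. The zinc-finger factor GATA6 was at 21.2 and 36.9, its relative GATA4 at 4.05 and 6.55, and TCF21, a factor of visceral mesenchyme, at 34.4 and 22.1, the lower value in Hulunbuir. T, the Brachyury gene of the primitive streak, had 0 UMIs in Ujumqin members and 2 in Hulunbuir.

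Factors of mesenchyme in general were present at moderate levels. ZEB2, a repressor of epithelial genes, was the highest in Ujumqin members at 37.8 CPM, and TWIST1, a helix-loop-helix factor of mesenchyme, the highest in Hulunbuir at 49.1, against 18.7 in Ujumqin. Over other cells 4 of 9 of these factors were at least 2-fold higher in Ujumqin and 1 lower (18.1% and 3.84% of all genes), over non-erythroid cells 0 of 9 were higher and 2 lower (0.311% and 3.79%), and none of 11 higher and 4 lower in Hulunbuir (0.397% and 4.02%). Among limb-field genes HAND2 was again the most abundant; TBX5, the forelimb counterpart of TBX4, was at 1.61 and 3.76 CPM, and the limb growth factor gene FGF10 at 4.39 and 4.38. EN1, WNT7A and LHX9, which mark limb ectoderm or later limb bud, had 0 UMIs in members of both libraries. Of 13 limb-field genes 8 were under 1 CPM in Ujumqin members and 6 in Hulunbuir.

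Of the posterior HOX genes at 5 CPM or more, 3 of 4 were at least 2-fold higher in members than in other cells of Ujumqin and 0 lower (median log2 1.46; 18.1% and 3.84% of all genes). Over non-erythroid cells 0 of 5 were higher and 1 lower (0.23; 0.311% and 3.79%), and 0 of 6 higher and 1 lower in Hulunbuir (-0.46; 0.397% and 4.02%). Besides the rule genes, HOXC9 was the highest posterior gene, at 14.8 CPM in Ujumqin and 30.6 in Hulunbuir, followed in Ujumqin by HOXA9 (7.28; 15.5 in Hulunbuir), HOXC12 (5.83 and 11.95) and HOXD8 (5.17 and 7.79). HOXC12 was higher in members than in other cells of both libraries, which held 1.81 and 6.84 CPM. Over non-erythroid cells of Ujumqin, at 4.20 CPM, its fold was 1.39. HOXC9 and HOXD8 were lower than in other Hulunbuir cells (47.6 and 10.0). HOXD13, active with HOXA13 in distal limb and hindgut, was at 0.4999 and 1.68 CPM. HOXB13 and HOXC13 had 0 UMIs in members of either library.

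Anterior HOX genes were lower in members. Of the 10 anterior genes at 5 CPM or more in Hulunbuir, 9 were at least 2-fold lower in members, with a median log2 fold of -1.84, beside 4.02% of all genes. In Ujumqin, HOXA7 was at 5.11 CPM in members, 6.36 in other cells and 14.4 in non-erythroid cells; over the last 0 of 3 were higher and 3 lower (median -1.49), beside 0.311% and 3.79%. HOXB9, numbered like the posterior genes HOXA9 and HOXC9 and so not an anterior gene, was the highest HOXB gene in other cells. In members it was at 0.167 CPM (3 UMIs) in Ujumqin and 5.09 in Hulunbuir, while other cells held 3.65 and 30.4. HOXB9 was thus lower in members than in other cells of both libraries. HOXA11, HOXA9 and HOXA7 were also present in endothelial-marker cells, at 90.2, 28.0 and 7.79 CPM in Hulunbuir, where HOXC12 was lower, at 0.842.

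**Figure D3:**
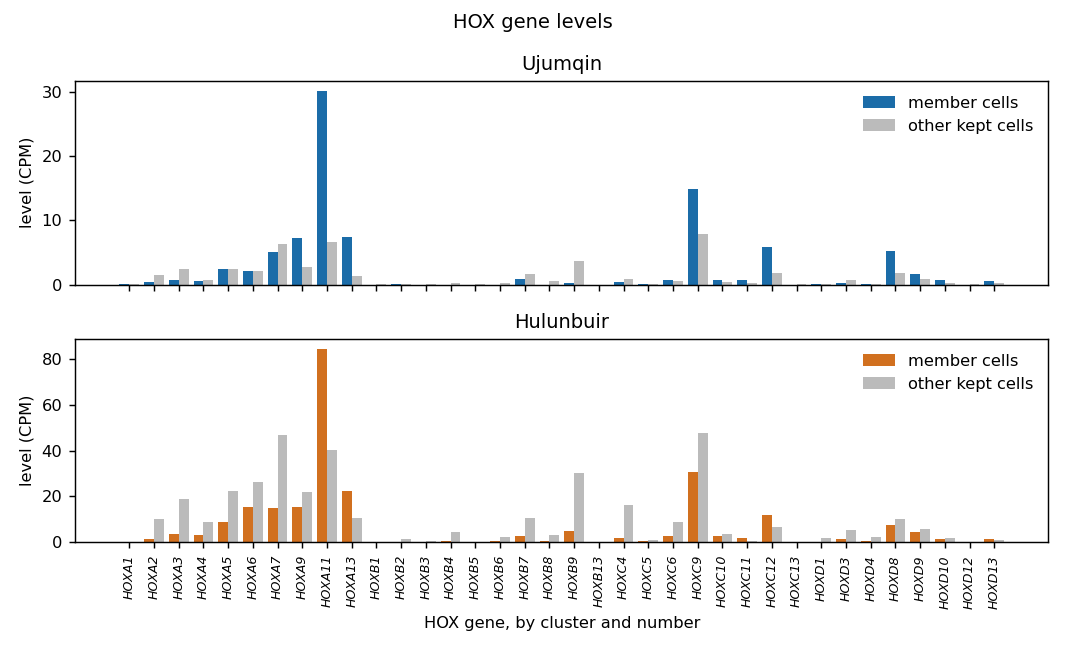
Levels of HOX genes in CPM (vertical axis) for each gene by cluster and number (horizontal axis) in Ujumqin (top) and Hulunbuir (bottom, another scale), with coloured bars for members and grey bars for other kept cells. HOXA11 is the highest in members of both libraries, and in Hulunbuir the genes from HOXA2 to HOXA7 and HOXB9 are lower in members than in other cells (HOXA7 14.96 against 47.0 CPM).

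Among 1368 genes of at least 50 CPM in members of both libraries, 2 were at least 2-fold over other kept cells in both. These were NEBL, which encodes the actin-binding protein nebulette, and COL1A1, a chain of type I collagen. NEBL was at 70.9 CPM in Ujumqin members and 77.7 in Hulunbuir, 6.63-fold and 2.50-fold over other cells. COL1A1 was at 2033 and 689 CPM, 4.24-fold and 2.01-fold over. Next came PDLIM3, an actin-linked LIM protein of muscle (5.25-fold and 1.999-fold), the crystallin gene CRYBB1 (2.16 and 1.97), HAND2 (4.31 and 1.94) and AKAP12, a scaffold of protein kinase A (3.67 and 1.93). Over non-erythroid cells of Ujumqin the folds of these 6 were 2.90, 1.86, 2.29, 1.74, 1.89 and 1.62, and 1 gene, NEBL, was at least 2-fold over such cells in both libraries.

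The remaining genes of this ranking encode mostly secreted proteins. LUM (3.36-fold in Ujumqin, 1.92-fold in Hulunbuir), COL12A1 of a fibril-associated collagen (4.74 and 1.81) and COL1A2, the other chain of type I collagen (3.47 and 1.78), belong to the matrix. CPZ, a carboxypeptidase that binds Wnt proteins (4.05 and 1.87), the protease inhibitor gene A2M (3.06 and 1.87), the secreted factor METRNL (4.77 and 1.84) and the lectin gene REG4 (3.35 and 1.81) act outside the cell. REXO2, an RNA exonuclease of mitochondria (2.93 and 1.82), and LSR, a protein of tricellular junctions (3.27 and 1.79), complete the 15. Erythroid-marker cells of Ujumqin hold little of some of them, 78.2 CPM of LUM and 5.599 of METRNL, and over non-erythroid cells the Ujumqin folds of these 9 lay between 1.34 (A2M) and 2.12 (METRNL).

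A closer comparison is with mesenchyme that carries PRRX1 and TWIST1 but none of the rule genes, 29 Ujumqin and 147 Hulunbuir cells; the first number is small. Here 4 of the 1368 genes were at least 2-fold higher in members of both libraries. NEBL was 9.83-fold and 4.69-fold higher, LSR 2.62 and 2.44, CRYBB1 2.16 and 2.73, and BAIAP2L1, which bends membranes at actin protrusions, 2.002 and 2.13. COL1A1, in contrast, is as high in general mesenchyme of Ujumqin: its fold was 0.894 in Ujumqin and 1.53 in Hulunbuir. REG4 (1.74 and 1.81), the spermidine synthase gene SRM (2.10 and 1.74), the decoy receptor gene TNFRSF6B (1.70 and 1.94), the apolipoprotein gene APOA1 (2.31 and 1.66), SPCS3 of the signal peptidase (1.66 and 1.68) and FKBP11 of the secretory pathway (1.65 and 1.83) followed. The third comparison group, cells with FOXF1 and GATA4 and no rule gene, held 13 and 7 cells, too few for values.

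The members carried keratin RNA at high levels, which the name mesenchyme does not cover. KRT18 and KRT19, keratins of simple epithelium, stood at 1986 and 2021 CPM in Ujumqin members and 3998 and 3488 in Hulunbuir, and KRT8, the partner of KRT18 in filaments, at 109 and 291. The defining epithelial gene CDH1, of E-cadherin, had 0 UMIs in members of both libraries, and the epithelial adhesion gene EPCAM was at 1.00 and 7.35 CPM against 7.84 and 42.5 in other cells. After thinning to 5000 UMIs, 78.7% of Ujumqin and 91.6% of Hulunbuir members had a KRT18 UMI, against 11.9% and 30.6% of endothelial-marker cells and 26.1% and 78.8% of other kept cells. KRT18 was thus found in most members of both libraries, and in most other cells of Hulunbuir as well; non-erythroid cells held 1179 and 2725 CPM of it.

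Among 33 ligand genes, 11 of 13 at 5 CPM or more were at least 2-fold higher in Ujumqin members than in other cells, and 1 of 16 in Hulunbuir, FGF7, with 3 lower. Over non-erythroid cells of Ujumqin 1 of 14 were higher and 1 lower. Here and in the lists that follow, the shares over all genes to set these against are 18.1% higher and 3.84% lower in Ujumqin, 0.311% and 3.79% over its non-erythroid cells, and 0.397% and 4.02% in Hulunbuir. FGF7, a growth factor that mesenchyme sends to epithelium, was at 13.1 and 19.1 CPM in members. IGF2, the fetal insulin-like growth factor, was the most abundant in Ujumqin members at 1227 CPM (1035 in Hulunbuir), and the heparin-binding factor MDK the most abundant in Hulunbuir at 1531 (478 in Ujumqin). The vessel growth factor VEGFA stood at 17.5 and 49.0 CPM, WNT2 at 19.9 and 30.9, BMP4 at 11.4 and 33.8, and BMP7 at 66.4 and 30.4. Members of both libraries thus held RNA of several signals that act on vessels, epithelium and mesoderm.

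Receptor genes were lower: none of 28 reached 50 CPM, and the highest were BMPR2, a type II receptor of BMPs, at 11.8 CPM in Ujumqin, and the ephrin receptor EPHA4 at 14.5 in Hulunbuir. In Ujumqin 3 of 6 were at least 2-fold over other cells and 2 under, over non-erythroid cells 0 of 9 were higher and 4 lower, and in Hulunbuir none of 13 over and 5 under. PDGFRA, a receptor of mesenchyme, was at 5.67 and 8.32 CPM. Among 13 targets of BMP and SMAD signals BAMBI, a decoy receptor, was highest in Ujumqin members at 392 CPM and ID1, an inhibitor of helix-loop-helix factors, in Hulunbuir at 694; 2 of 5 were over other cells in Ujumqin, over non-erythroid cells 0 of 5 were higher and 2 lower, and none of 5 in Hulunbuir. The Hedgehog response genes HHIP, which binds the ligand, and PTCH1, its receptor, stood at 10.8 and 5.94 CPM in Ujumqin and 4.87 and 11.2 in Hulunbuir, with 3 of 3 and none of 3 past the fold over other cells, and none of 3 over non-erythroid cells of Ujumqin. FOXF1, given above, is counted in this list as well.

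Adhesion genes of the chorion and of vessels were low in the members. VCAM1, which the chorioallantoic union of mice needs, was at 3.00 and 0.664 CPM, and its partner ITGA4 at 0.4999 and 0.354; ITGB1, the common integrin chain, was the most abundant of the 16 at 164 and 208. In Ujumqin 2 of 5 were over other cells, over non-erythroid cells 0 of 6 were higher and 1 lower, and in Hulunbuir none of 7, with 3 under. Of the 19 Hippo pathway genes, TEAD4, a DNA-binding partner of YAP1, had the highest level, 84.9 and 78.7 CPM, with 4 of 9 over other cells in Ujumqin, none of 9 over non-erythroid cells, and none of 10 in Hulunbuir, 1 under. Non-erythroid cells held 2.74 and 0.802 CPM of VCAM1, near its levels in members. Against these cells VCAM1 thus marked the members of neither library at this depth.

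The members did not form a cluster of their own. Each library was clustered without the listed genes, and the Ujumqin members fell mainly into 3 of 24 clusters and the Hulunbuir members into 2 of 17. In Ujumqin, cluster 5, led by REG4, LUM and COL1A1, held 153 members, cluster 15, led by NEBL and COL12A1, 91, and cluster 8, led by ACTA2 and EDNRB, 86. In Hulunbuir, cluster 1, led by NEBL and REG4, held 500 and cluster 3, led by DCN and REG4, 330; cluster 4, led by POSTN and TWIST1, held 93, cluster 5, led by MYL7 and MYH6, 40, and cluster 6, led by CD93 and PECAM1, 24. Members were at most a minority of each, from 43.1% of cluster 15 in Ujumqin to 4.87% of cluster 6 in Hulunbuir.

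Within the large clusters, members and other cells could hardly be told apart. Of the genes at 50 CPM or more, the share past 2-fold in either direction between members and other cells of the same cluster was 0.056% in cluster 5, 0.0547% in cluster 8 and 0% in cluster 15 of Ujumqin, and 0% in clusters 1 and 3 of Hulunbuir, where 1968 and 1927 genes were compared. The gene in cluster 5 has no symbol. The gene in cluster 8 of Ujumqin was CRABP1, of which 1 member cell holds most UMIs, as given with its library difference. In Hulunbuir clusters 4, 5 and 6 the shares were 0.889%, 2.16% and 0.701%. These last groups are small, with 1485234, 378638 and 917987 member UMIs against 12579663 in cluster 1, so counting error alone moves more genes there. Counted only where the whole 95% interval lay past 2-fold, a limit chosen after seeing the data, 6 genes were higher and 4 lower in cluster 4, 3 and 10 in cluster 5, and 6 and 3 in cluster 6, with the same counts as before in the 5 large clusters.

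In both libraries members of the large clusters differed in NEBL and KRT18 on 1 side and VIM on the other. Ujumqin cluster 15 had 143 CPM of NEBL and 3938 of KRT18 in its members, cluster 5 34.6 and 1109, and cluster 8 20.5 and 132. In Hulunbuir cluster 1 had 124 and 5178, and cluster 3 27.9 and 1546. VIM, the filament protein of mesenchyme, ran the other way, at 2348 CPM in cluster 15 against 5434 and 5078 in clusters 5 and 8 of Ujumqin, and 451 in cluster 1 against 1879 in cluster 3 of Hulunbuir. The NEBL-high members also held more VEGFA (32.7 CPM in Ujumqin 15, 68.8 in Hulunbuir 1) and FGF7 (26.8 and 27.3) than the members of Ujumqin 5 (9.62 and 7.22) and Hulunbuir 3 (17.1 and 10.8). Members of Ujumqin cluster 8 stood out by ACTA2, of smooth muscle actin, at 734 CPM, and EDNRB, an endothelin receptor gene chosen after its values were seen, at 204, and were low in HAND2 (29.0). FOXF1 lay between 6.47 and 7.34 CPM in these Ujumqin clusters and at 15.8 and 11.9 in Hulunbuir clusters 1 and 3. FOXF1 thus differed little across the split in Ujumqin and leaned to the NEBL-high side in Hulunbuir. TBX20 was lower in cluster 8, at 4.25 CPM against 9.49 and 8.63 in clusters 5 and 15, and at 19.3 and 21.2 in the Hulunbuir clusters.

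Members of Hulunbuir clusters 4 and 5 had the highest levels of TWIST1 (184 and 182 CPM), PRRX1, a homeobox factor of limb and lateral plate mesenchyme (81.5 and 84.5), BMP4 (150.1 and 106) and CDX2, a homeobox factor of the posterior body and hindgut (66.7 and 39.6), with little LUM (70.7 and 108), almost no NEBL (0.673 and 0) and high KRT18 (6035 and 6547). The other cells of cluster 4 had 74.5 CPM of TWIST1, 24.6 of PRRX1 and 75.8 of POSTN, of a matrix adhesion protein, against 1.35 in members. Of heart muscle genes, members of cluster 5 had 0 UMIs of MYL7, MYH6 and TNNT2 and 5.28 CPM of MYL4, against 244 of MYL4 in its other cells. No Ujumqin member had a CDX2 UMI, and whether some Ujumqin members share the other traits of this group was not tested.

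The 24 members in Hulunbuir cluster 6 go against the label. They carried 264 CPM of PECAM1 and 267 of KDR, genes of endothelial adhesion and VEGF reception, 10242 of VIM and only 70.8 of LUM, against 20.5 in other cells of the cluster. Their depth was 31682 UMIs at the median against 18173, and KRT18 was at 451 CPM against 132, and the part of doublets and free RNA in this was not tested. They make up 2.37% of the Hulunbuir members, and endothelial genes, not those of mesenchyme, led their profile; in Ujumqin 2 members lay in such a cluster.

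**Figure D4:**
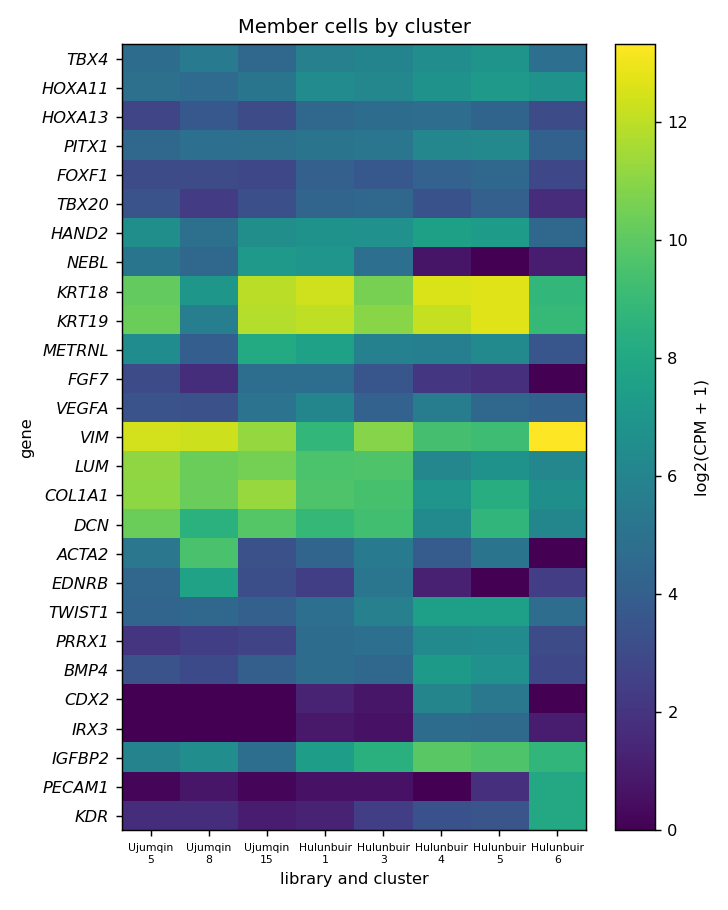
Levels in members, as log2 of CPM plus 1 (colour), of genes (vertical axis) in each cluster with at least 20 members (horizontal axis, library and cluster number). NEBL is highest in Ujumqin 15 and Hulunbuir 1, KRT18 is high there and in Hulunbuir 4 and 5, CDX2 and TWIST1 in Hulunbuir 4 and 5 (CDX2 66.7 and 39.6 CPM), and PECAM1 and KDR in Hulunbuir 6 alone among these clusters.

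Grouping the members by partner gene changed little. Members with a HOXA13 UMI (111 in Ujumqin, 385 in Hulunbuir) were set against those with PITX1 alone (76 and 104). In Ujumqin 0.22% of 1815 genes were at least 2-fold higher with HOXA13 and 0.386% lower, and in Hulunbuir 0.05% of 2002 genes in each direction, 1 gene each. Chosen after their values were seen, the genes higher in Ujumqin were KRT18, KRT8 and those of the calcium-binding proteins S100A16 and S100A2, and the Hulunbuir genes were APOA1, higher, and CRABP1, lower. In Ujumqin the HOXA13 group had 2459 CPM of KRT18 against 1212, and 37.8 of EDNRB against 87.7, the same genes that divide clusters 15 and 8. GNG11, TUBA4A and PLVAP were also at least 2-fold lower with HOXA13 in Ujumqin. NEBL leaned to the HOXA13 group in both libraries, 81.2 against 42.8 CPM and 83.0 against 49.5, and ACTA2 to the PITX1 group, 258 against 138 and 56.2 against 31.1. PLVAP changed sides, at 28.5 CPM with HOXA13 against 57.6 with PITX1 alone in Ujumqin and 54.6 against 32.8 in Hulunbuir. The groups also differ in depth, 42599 against 32398 UMIs at the median in Ujumqin, and its part was not tested. After thinning to 5000 UMIs, HOXA11 was found in 14.7% of Ujumqin and 36.1% of Hulunbuir members, PITX1 in 11.1% and 17.5%, and HOXA13 in 3.05% and 11.9%, well under their shares at full depth.

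Between the libraries, 76 of 1998 genes of at least 50 CPM in members of either were at least 2-fold higher in Hulunbuir members (3.8%) and 41 lower (2.05%). At 5 CPM, where transcription factors come in, 9.41% of 5856 genes were higher and 2.83% lower. The median log2 fold of Hulunbuir over Ujumqin was 0.18 over the first set and 0.27 over the second, so folds of lists below are read against these; in endothelial-marker cells the median over the first set was 0.27. FOXF1 and TBX20, by log2 1.11 (0.80 to 1.42) and 1.13 (0.86 to 1.41), were higher in Hulunbuir members by more than this median. In endothelial-marker cells and in other cells FOXF1 differed by 0.54 and 2.08, and TBX20 by 0.45 and 2.13; in non-erythroid cells they differed by 0.92 and 0.97, near the folds in members.

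Among genes with a symbol and at least 50 CPM, apart from mitochondrial, ribosomal and haemoglobin genes, the largest increase was in ID3. This gene, an inhibitor of helix-loop-helix factors that BMP signals induce, was at 53.7 CPM in Ujumqin members and 463 in Hulunbuir, log2 3.11 (3.02 to 3.21). It was higher in Hulunbuir outside the members too: the fold was 3.14 in other cells, 1.97 in non-erythroid cells and 1.86 in endothelial-marker cells. GADD45G, a stress and growth arrest gene, followed at 2.86, with 2.97 in other cells and 2.47 in non-erythroid cells. Linker histone genes H1-2, H1-4, H1-5 and H1-3 rose by 2.75, 2.50, 2.17 and 2.11 and the core histone gene HIST2H2AC by 2.58, and in endothelial-marker cells by 3.30, 2.42, 2.40, 2.36 and 2.93. Histone RNA, much of which lacks a poly(A) tail, thus differed between the libraries across cell groups.

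IGFBP2, which binds insulin-like growth factors, rose from 58.5 to 322 CPM, log2 2.46 (2.37 to 2.55), against 0.61 in endothelial-marker cells, 1.81 in other cells and 1.56 in non-erythroid cells. Of the 12 genes raised most, its fold in members exceeded that in endothelial-marker cells by the most when all members were kept. Without the member richest in each gene the gap was larger for CRABP1, at 4.04 against 2.02 in endothelial-marker cells. IER5L, of the immediate early response family (2.10), EPM2AIP1, which binds the glycogen phosphatase laforin (1.80), and KIF5C, a motor of the kinesin family (1.71), were at 2.93, 2.46 and 3.32 in other cells and at 1.78, 1.48 and 2.12 in non-erythroid cells. CRABP1, which binds retinoic acid, stood at 15.2 and 58.5 CPM, log2 1.94; 1 Ujumqin cell held 215 of its 274 UMIs (78.5%), and without the member richest in it in each library the Ujumqin level was 3.29 CPM and the log2 fold 4.04. It was 0.42 among members with a HOXA13 UMI and 0.98, chosen after seeing the data, in the clusters led by LUM, DCN, COL1A1 or REG4, both under 2-fold. Both of these subsets include the Ujumqin cell with most CRABP1 UMIs, and their folds without it were not computed.

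Among the same genes the largest decrease was in LGALS3, of a galectin, from 425 CPM in Ujumqin members to 27.4 in Hulunbuir, log2 -3.95 (-4.07 to -3.83). ANXA1, of a phospholipid-binding annexin, was at -2.76, RARRES1, a gene responsive to retinoic acid, at -2.52, the immediate-early factor FOS at -2.46, APOA1 at -2.43 and ACTA2 at -2.41. In endothelial-marker cells these 6 were at -6.96, -3.26, -1.27, -2.81, -1.73 and -3.52, all lower in Hulunbuir as well. LMNA of the nuclear lamina (-1.96), the Fc receptor gene FCGRT (-1.86) and TSPO of the outer mitochondrial membrane (-1.82) were lower there too, at -3.14, -1.81 and -1.76. All 9 were thus lower in Hulunbuir endothelial-marker cells as well. Without members that carry 3 or more markers of the erythroid, endothelial, epithelium or neural list, which leaves 87 Ujumqin and 126 Hulunbuir members, LGALS3 was at -1.99 and TSPO fell under 2-fold, at -0.49. The epithelium list, with its keratins, alone marked 253 Ujumqin (69.7%) and 871 Hulunbuir members (86.2%). This alternative therefore cannot tell mixed cells from members that carry keratin RNA.

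VIM and LGALS1, a galectin of mesenchyme, fell as well. VIM fell from 4237 to 1302 CPM in members, log2 -1.70 (-1.72 to -1.68), while endothelial-marker cells differed by -0.24, other cells by 0.21 and non-erythroid cells by -0.95. LGALS1 fell from 789 to 266, log2 -1.57, against -0.80 in endothelial-marker cells and -1.18 in non-erythroid cells, with almost no difference in all other cells. COL3A1, of a fibrillar collagen, fell from 968 to 307 CPM, log2 -1.66, against -2.71 in endothelial-marker cells, -0.58 in other cells and -1.75 in non-erythroid cells. For VIM the makeup of the members bears on the value: the Hulunbuir members of cluster 1, 49.5% of all, held 451 CPM, and those of cluster 3, 32.6%, held 1879; the part of this split in the fold was not tested. Without the members in clusters led by endothelial genes, an alternative chosen after seeing the data, the log2 fold of VIM was -2.14. Without members that carry 3 or more markers of the lists named above it was -1.05, and COL3A1 was at -0.92, under 2-fold.

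**Figure D5:**
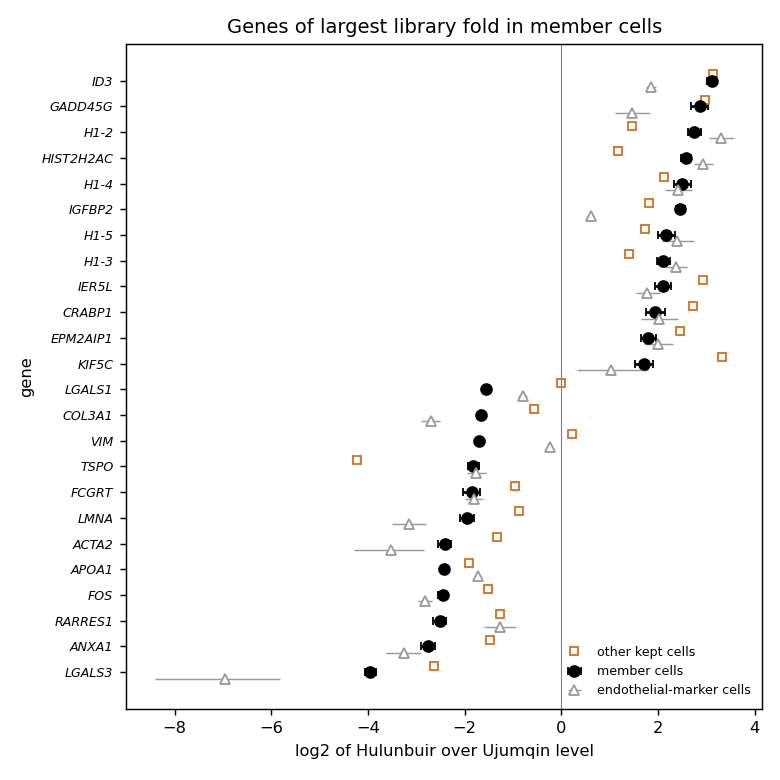
Log2 of the Hulunbuir over the Ujumqin level (horizontal axis) for the 12 genes of largest fold in each direction (vertical axis): black circles are members and grey triangles endothelial-marker cells, both with exact 95% intervals, and orange squares other kept cells, red cells included. Most genes lie on the same side in all 3 groups, and VIM (-1.70 in members, -0.24 in endothelial-marker cells) does not keep its size.

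Matrix genes as a list were lower in Hulunbuir members. Of 14 at 50 CPM none was at least 2-fold higher and 6 were lower, beside 3.8% and 2.05% of all genes, with a median log2 fold of -0.76 against 0.18. LUM stood at 1736 and 671 CPM, COL1A1 at 2033 and 689, COL1A2 at 1112 and 441, and DCN, of the proteoglycan decorin, at 1004 and 475. In endothelial-marker cells COL1A1 and LUM differed by -3.73 and -3.57, in other cells by -0.48 and -0.56 and in non-erythroid cells by -1.67 and -1.77; the last groups include the non-members of the clusters led by these genes. In Ujumqin, endothelial-marker cells held 245 CPM of LUM and 395 of COL1A1 and erythroid-marker cells 78.2 and 81.4, and the part of free RNA in this was not tested. Within the libraries, 21 of 23 matrix genes at 5 CPM were at least 2-fold over other cells in Ujumqin, over non-erythroid cells 1 of 23 were higher and 0 lower (median 0.39), and 1 of 26 in Hulunbuir, COL1A1, with 2 lower there and medians of 1.48 and 0.32. Of the contractile genes 0 of 4 were higher and 1, ACTA2, lower between libraries, with a median of -0.27; TPM2, a tropomyosin gene, was the most abundant at 722 and 511 CPM.

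The factor lists moved the other way at 5 CPM, where 9.41% of all genes were higher and 2.83% lower, with a median of 0.27. For the allantois and lateral plate factors 4 of 10 were at least 2-fold higher in Hulunbuir members and 0 lower (median 0.82), for general mesenchyme factors 2 of 9 and 1 (median 0.49), for limb-field genes 2 of 3 and 0 (1.36). The first count includes FOXF1, whose fold is given above. Posterior HOX genes gave 4 of 5 higher (median 1.04) and anterior HOX genes 3 of 3 (median 1.85). The higher HOX levels in Hulunbuir members were part of a wider difference, as other Hulunbuir cells also exceeded other Ujumqin cells, by 2.99 for HOXA9 and 2.60 for HOXC9 against 1.09 and 1.04 in members, and by 1.82 and 1.44 in non-erythroid cells. PRRX1 at 5.17 and 29.7 CPM, log2 2.52 (2.21 to 2.85), was the mesenchyme factor of largest increase, and NR2F1, a nuclear receptor, the decrease, from 6.33 to 0.841. CDX2 rose from 0 UMIs to 6.33 CPM, at least 38.0-fold when 3 UMIs are set for the 0, carried by the members of clusters 4 and 5. It was higher in Hulunbuir outside the members too, at 1.74 and 29.6 CPM in non-erythroid cells, log2 4.09.

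Most signalling lists lay above that median as well, and their counts are to be set against the same 9.41% and 2.83%. Ligands gave 4 of 13 higher and 1 lower in Hulunbuir members (median 0.63), receptors 3 of 10 and 0 (0.90), BMP and SMAD targets 2 of 5 and 0 (0.65), and Hedgehog response genes 1 of 3 and 1 (0.91). The Hedgehog response gene that rose was FOXF1, already given above. MDK, by log2 1.68, and VEGFA, by 1.49, were among the ligands that rose, and BMP7, at -1.13, was the 1 that fell. In non-erythroid cells MDK, VEGFA and BMP7 differed by 1.07, 1.67 and -0.36. Adhesion genes gave 2 of 7 higher, the cadherin gene CDH2 (0.444 and 5.98 CPM) and NCAM1, of a neural cell adhesion molecule, and 1 lower, POSTN (median 0.69), and Hippo genes 1 of 11 and 0 (-0.11), the riser being ANKRD1, a target of YAP1, from 2.50 to 21.5 CPM. IGF binding genes gave 1 of 8 higher, IGFBP2, and 1 lower (0.49), and retinoic acid genes 2 of 4 higher, CRABP1 and its relative CRABP2, and 0 lower (0.78). The counts of higher Hippo and IGF binding genes were thus near the share over all genes.

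Lists of cell state moved in both directions, beside 3.8% of all genes higher and 2.05% lower at 50 CPM. Cell cycle genes had a median of 0.59 at 50 CPM, with 3 of 11 at least 2-fold higher: TOP2A, of a topoisomerase, CDK1 and AURKB, of mitotic kinases. Non-erythroid cells differed in TOP2A, CDK1 and AURKB as well, by log2 1.06, 1.01 and 0.89. CDKN1A, of the p21 inhibitor of cell cycle kinases, fell from 28.7 to 0.797 CPM, log2 -5.17 (-5.94 to -4.50), and in endothelial-marker cells from 72.5 to 0.526. Immediate-early and heat shock genes gave 0 of 7 higher and 1, FOS, lower (median -0.17). The metal-binding genes MT2 and MT1C, the 2 metallothioneins at 5 CPM, both fell, with a median log2 fold of -3.75, with MT2 at 39.2 and 4.34 CPM. Between non-erythroid cells MT2 and MT1C differed by -3.57 and -5.70. Hypoxia and glycolysis genes gave 1 of 9 higher, ENO1 of glycolysis, and 0 lower (median 0.28), and at 5 CPM 5 of 14 higher and 0 lower (median 0.34), beside 9.41% and 2.83%. At 5 CPM cell cycle genes gave 3 of 17 higher and 1 lower and immediate-early and heat shock genes 0 of 12 and 3. FOS, CDKN1A and the metallothioneins were thus lower in Hulunbuir members; the part of handling before lysis was not tested.

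Markers of other cell types were summed in the members to show what else their RNA held. Of 13 erythroid markers 13 had UMIs in Ujumqin members and 5 in Hulunbuir, summing to 378 CPM in Ujumqin and 218 in Hulunbuir members. Most of this was TMEM14C, a heme synthesis gene active in many cells (296 and 214); the red cell genes AHSP and ALAS2 stood at 41.4 and 17.9 CPM in Ujumqin and 0.620 and 0 in Hulunbuir. Extraembryonic endoderm markers summed to 958 CPM in Ujumqin and 265 in Hulunbuir members, 11 and 8 of 12 with UMIs, led by APOA1 in Ujumqin (668) and the retinol carrier RBP4 in Hulunbuir (139); AHSG was at 41.7 and 0.310, and CUBN at 0 in both. Megakaryocyte markers summed to 19.6 CPM in Ujumqin and 0.664 in Hulunbuir members, 5 and 2 of 6 with UMIs, led by GP1BB (9.22) and RAB27B (0.620). In these 3 lists the Ujumqin members held the larger sum, as did other cells of that library, and the part of free RNA in it was not tested.

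In the same way, for Ujumqin and then Hulunbuir members, endothelial markers summed to 34.8 and 58.6 CPM, with UMIs of 10 and 14 of 15 genes, led by the early endothelial factor ETV2 in both (15.3 and 14.9); PECAM1 was at 4.39 and 11.2, and CDH5, of the endothelial cadherin, at 0 and 0.133. Epithelium markers summed to 4133 and 7799 CPM, with UMIs of 11 and 12 of 13 genes, led by KRT19 (2021) and KRT18 (3998), and CDH1 at 0 in both. Gut endoderm markers summed to 0.111 and 6.86 CPM, with UMIs of 2 and 7 of 11 genes, led by SPINK4 (0.0555) and CDX2 (6.33), with FOXA2, FOXA3 and SPINK1 at 0 in both. These sums rest on genes that other tissues share: keratins make up most of the epithelium list, and CDX2 is also a factor of posterior mesoderm. Trophoblast markers summed to 7.61 and 9.65 CPM, with UMIs of 5 and 7 of 9 genes, led by ELF5 (3.89) and HAND1 (5.18), with PAG4 and TKDP1 at 0 in both. Immune markers summed to 9.55 and 2.92 CPM, with UMIs of 5 and 3 of 9 genes, led by CD68 in both (7.78 and 2.21), with PTPRC, CSF1R, C1QC and CD14 at 0 in both. Germ cell markers summed to 1.33 and 2.97 CPM, with UMIs of 3 and 5 of 7 genes, led by POU5F1 in both (1.00 and 1.90), with PRDM14 and NANOS3 at 0 in both. The genes given at 0 in these 3 lists were thus undetected in the members, while ELF5, HAND1, CD68 and POU5F1 were detected. Other kept cells held 5.23 and 14.2 CPM of the trophoblast list.

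Lists of embryonic tissues were low as well. Neural markers summed to 2.78 and 11.7 CPM, with UMIs of 7 and 8 of 13 genes, led by FABP7 in both (1.06 and 3.50), with SOX1, SOX3, OLIG2, HES5 and ELAVL3 at 0 in both. Paraxial mesoderm and somite markers summed to 2.17 and 9.03 CPM, with UMIs of 7 and 11 of 14 genes, led by RIPPLY2 (1.17) and DLL3 (5.89), with MESP2, PAX1 and PAX9 at 0 in both. Other Hulunbuir cells held 112 CPM of the somite list and 97.6 of the neural list, so members were far below the rest of their library. Cardiomyocyte markers summed to 45.2 and 46.4 CPM, with UMIs of 10 and 10 of 12 genes, led by MYL4 (35.2) and ACTC1 (17.6), with NKX2-5 and NPPA at 0 in both. Intermediate mesoderm and coelomic markers summed to 3.05 and 5.44 CPM, with UMIs of 7 and 8 of 10 genes, led by ALDH1A2 in both (1.22 and 2.17), with UPK3B and SIM1 at 0 in both. Members with neural markers were left out in 1 alternative, together with those of other lists; the part of the remaining lists was not tested.

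Depth bounds what these cells can show. With 18003995 and 22590494 member UMIs in all, genes well under 1 CPM rest on few UMIs, and genes at 0 are undetected at this depth, not absent. FOXF1 was seen in 24.0% of Ujumqin and 25.1% of Hulunbuir members at full depth. Scrublet, a doublet caller, marked 153 Ujumqin and 89 Hulunbuir cells, 7 and 16 of them members. At the doublet rate expected from loading, 13.6% and 8.57%, the highest scores would take in 32 and 158 members, 8.82% and 15.6%. For the members just inside the rule the part of doublets and of free RNA was not tested.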

How the data were processed

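The deposited files hold, per the file headers and labels, a matrix of UMI counts for each library, made by the authors with Cell Ranger from reads aligned to a sheep genome; the matrix headers name version 5.0.0 and the processing notes 3.1.0, with Seurat 3.2.0 in R 3.6.1 for later steps. Counts were used as deposited. The files list 26478 features, and 83 symbols that belong to several features were taken at the first. Of 495 listed genes 35 were not in the files, so 460 were used in 32 lists. Values of some list genes are not reported here.

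Members and lists were chosen with earlier results of these data known. UMIs were summed over the cells of a group; where 1 side of a ratio was 0, 3 counts stood in for it, so that fold is a lower bound, and it enters list medians at that bound. Named genes were the markers, the 15 highest over other cells and 10 highest over mesenchyme of at least 50 CPM in both libraries by the smaller of the library folds, the 12 of largest fold each way between libraries (mitochondrial, ribosomal and haemoglobin genes left out), and up to 6 genes per list by level or fold; further list genes and EDNRB were chosen after their values were seen. Genes without a symbol were not named. Lists count genes at least 2-fold apart, at 50 CPM or, for factors and signalling genes, 5 CPM. Each library was clustered alone, without listed genes, on 10000 UMIs per cell after scaling, 2000 variable genes, 30 components, 20 neighbours and Leiden resolution 1, and leading genes were read from all genes. Scrublet scores marked doublets, which were kept. With totals that omit mitochondrial, haemoglobin and ribosomal protein genes every log2 fold between libraries shifts by -0.02.

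Clustering used scanpy 1.11.5 with leidenalg 0.10.2, igraph 0.11.9 and scikit-learn 1.9.0, sums and intervals pandas 2.3.3, scipy 1.17.1 and numpy 2.4.6, and plots matplotlib 3.10.9, all in Python 3.11.15; the code was checked on simulated data. Alternatives tried were other cell filters, stricter gene rules, thinning, removal of the highest Scrublet scores, other denominators and totals, means over cells, subsets of members, and other limits of fold and level.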

Additional observations from a re-analysis of the deposited data

Results flagged for a closer look

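Of the genes named for their difference between the libraries, 7 had log2 folds over other kept cells whose 95% intervals lay on opposite sides of 0 in Ujumqin and Hulunbuir. On the log2 scale, H1-2 was at -1.05 in Ujumqin and 0.2348 in Hulunbuir, HIST2H2AC at -1.109 and 0.2923, H1-5 at -0.3542 and 0.09471, and H1-3 at -0.5602 and 0.1392. These 4 histone genes were thus under other cells in Ujumqin, where red cells make up much of the comparison, and slightly over them in Hulunbuir. TSPO was at -2.0 in Ujumqin and 0.4143 in Hulunbuir. VIM and LGALS1 went the other way, VIM from 1.075 to -0.8373 and LGALS1 from 1.418 to -0.1476. With erythroid-marker cells left out of the comparison, chosen after seeing the data, of these 7 only LGALS1 kept intervals on opposite sides, at 0.24 in Ujumqin; the Ujumqin values of H1-2, HIST2H2AC, H1-5, H1-3, TSPO and VIM were then -0.09, -0.07, -0.01, 0.07, 0.09 and -0.08. With 1 library per breed these differences were not tested.

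Outside the cell filter, 6 Hulunbuir barcodes met the gene rule, all of them past the mitochondrial limit, and 2 Ujumqin barcodes did. They are in no value of the members, and their difference from members was not tested.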

How the results depend on the processing

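No paired analysis was possible because each breed gave 1 pooled library. The larger share of members in Hulunbuir, 10.5% against 2.49%, kept its direction under every alternative computed, but the shares themselves moved past their intervals under many. Full-depth shares among cells of at least 10000 UMIs without erythroid-marker cells are not among these alternatives. The Ujumqin share was 3.59% with at least 500 genes per cell, 2.14% with no cell filter, 0.577% with at least 2 UMIs of TBX4, 1.22% with 2 partner genes and 3.93% without erythroid-marker cells. The Hulunbuir share was 9.50% with no cell filter, 2.75% with at least 2 UMIs of TBX4, 5.85% with 2 partner genes and 9.74% without the highest Scrublet scores, for which the cause was not tested. Stricter rules and other denominators change a share by construction. With thinning to 2000, 5000 and 10000 UMIs the Ujumqin share was 0.0317%, 0.149% and 0.942% and the Hulunbuir share 0.469%, 2.71% and 6.85%, since fewer UMIs are left to meet the rule. With erythroid-marker cells left out as well, chosen after seeing the data, these were 0.0722%, 0.413% and 2.85%, and 0.470%, 2.71% and 6.85%. Among cells of at least 10000 UMIs, an alternative chosen after seeing the data, the shares were 4.98% and 16.2%. These shares hold red cells in the denominator. Without erythroid-marker cells, 2390 of the 7215 Ujumqin cells of this depth remain, against 5605 of 5607 in Hulunbuir. Over the remaining cells the Ujumqin share would lie much nearer that of Hulunbuir, and it was not computed.

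The counts of genes at least 2-fold higher and lower in Hulunbuir members, 76 and 41, were 14 and 15 with a fold limit of 4, 181 and 76 at 20 CPM, and 551 and 166 at 5 CPM, the last chosen after seeing the data; more genes pass a lower limit by construction. Under the alternatives that changed the members or the scaling they ranged from 68 to 106 and from 40 to 54. Of FOXF1, TBX20 and the 24 genes of largest fold between the libraries, no fold changed sign. Of 312 such values under the alternatives, 222 lay within the interval of the reported fold and 90 outside. Of the 30 values of FOXF1, TBX20 and HAND2 over other cells, 17 lay within and 13 outside, and none changed sign; in Ujumqin they fell from 1.77, 1.94 and 2.11 to 0.61, 0.78 and 0.92 without erythroid-marker cells, chosen after seeing the data, where the counts of list genes at least 2-fold higher fell to 0 or 1. Leaving out members with 3 or more markers of the erythroid, endothelial, epithelium or neural list kept 87 Ujumqin and 126 Hulunbuir members and moved the log2 fold of TSPO to -0.49 and of COL3A1 to -0.92, under 2-fold, VIM to -1.05 and LGALS3 to -1.99. Most members left out, 253 in Ujumqin and 871 in Hulunbuir, were marked by the epithelium list with its keratins. The subsets by cluster, the removal of the richest cell of each gene, the removal of shared barcodes and the endothelial-marker comparison were chosen after seeing the data.

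The limits are those of 1 pooled library per breed. Breed, pool and dissection cannot be told apart, and the intervals hold no spread between embryos. The larger share in Hulunbuir was also found in cells thinned to equal UMIs with erythroid-marker cells left out; the part of depth in the gene folds was not tested. Most members rest on a single TBX4 UMI, and cells that express TBX4 without a captured UMI are among the other cells. The comparison groups of mesenchyme in Ujumqin and of FOXF1 GATA4 mesoderm are small.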
